A study of Glycine max with 20 samples.

Results

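NAC transcription factors were followed through the soybean (Glycine max) seed as the gene models whose Pfam annotation names the No apical meristem domain. Taking the primary model of each gene (the model numbered 1), 180 of 55912 primary models, or of 88515 models in all, carried that annotation. The members lay on all 20 chromosomes, with 3 to 17 members on each, and their cDNA models were 234 to 3490 bases long (median 1616). The study sequenced total RNA fragments (control RNA, CT) and ribosome protected fragments (footprints, FP) from greenhouse-grown cultivar Williams. Cotyledons were taken from seeds of 25 to 50 mg (C25, early maturation), 100 to 200 mg (C100, mid maturation) and 300 to 400 mg (C300, late maturation). Seed coats came from the 2 lighter classes (SC25 and SC100). Each group used here had 2 libraries, except C100 FP and C300 FP with 1 each, which gave 18 libraries, each made from a powder of several seeds.

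NAC proteins are a plant-specific family that binds DNA through the conserved N-terminal NAC domain and activates or represses transcription through a variable C-terminal part. In Arabidopsis, from which most roles are known, members mark organ boundaries, switch on secondary wall formation in xylem and fibres, drive leaf senescence and respond to stress. A subset is held at membranes by a C-terminal anchor and reaches the nucleus only after it is cut free. In Arabidopsis seeds, NAC proteins are known for shaping the integuments, the ovule layers that become the seed coat.

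The files describe each model by its best Arabidopsis match, and the members were grouped by that description. The membrane-tethered group held 14 members, of which 8 were described as NAC transcription factor-like 9, a factor of the membrane-anchored type. The boundary and organ formation group held 10, of which 8 were described as NAC domain containing protein 100, written NAC 100 here, a relative of the CUP-SHAPED COTYLEDON factors. The senescence and seed group held 34, the wall and xylem group 33, and the root cap group 2. A further 34 carried only a general family description, and 53 carried other NAC numbers. Levels are given as RPKM, reads per kilobase of cDNA scaled to library size, after scaling between libraries with TMM factors.

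Most of the family was not detected or rare in the seed. Of the 180 members, 19 had 0 counts in all 18 libraries, 68 had under 10 counts in total, and 89 stayed under 0.1 RPKM in every CT group. Only 34 members reached a mean of 1 RPKM in any CT group, 9 reached 5 and 3 reached 10. No wall and xylem member reached a group mean of 1 RPKM, and the 33 together summed to between 0.276 RPKM in C25 CT and 2.18 RPKM in C300 CT. None of the 4 members described as NAC 58 and none of the 3 described as NAC 38 reached the 10 counts needed for a test.

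More members reached 1 RPKM in seed coats than in cotyledons. At a mean of 1 RPKM or more, the CT libraries of C25 held 9 members, those of C100 15 and those of C300 16, against 31 in SC25 CT and 30 in SC100 CT. Of all primary models, 6841, 7277 and 7088 reached that level in C25, C100 and C300 CT. In SC25 and SC100 CT 9883 and 7239 did. On library totals without TMM factors, 19, 16 and 17 members reached 1 RPKM in C25, C100 and C300 CT, and 45 in each of SC25 and SC100 CT. The primary models at that level were then 14888, 7683 and 8027 in the cotyledon groups and 15685 and 12993 in the seed coat groups. The higher member counts in seed coats thus held on both scales, while the rise in members from C25 to C100 rests on the TMM factors. In footprints, with TMM factors, the member counts were 12, 19 and 21 in the cotyledon groups by weight and 27 and 32 in the seed coat groups. The levels of all members summed to 28.9 to 32.5 RPKM in the C25 CT libraries, 72.7 to 79.6 RPKM in those of C100 and 55.5 to 69.2 RPKM in those of C300, and to 96.2 to 146 RPKM in SC25 CT and 124 to 139 RPKM in SC100 CT. Every seed coat CT library thus stood above every cotyledon CT library in summed level. The highest CT mean of a member fell in a seed coat group for 57 members (SC25) and 49 members (SC100), and in a cotyledon group for 10 (C25), 14 (C100) and 28 (C300). Over the 99 members with at least 10 counts in the CT libraries together, these counts were 36, 37, 3, 8 and 15. The rest of the tally is set by a few reads per member.

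**Figure D1:**
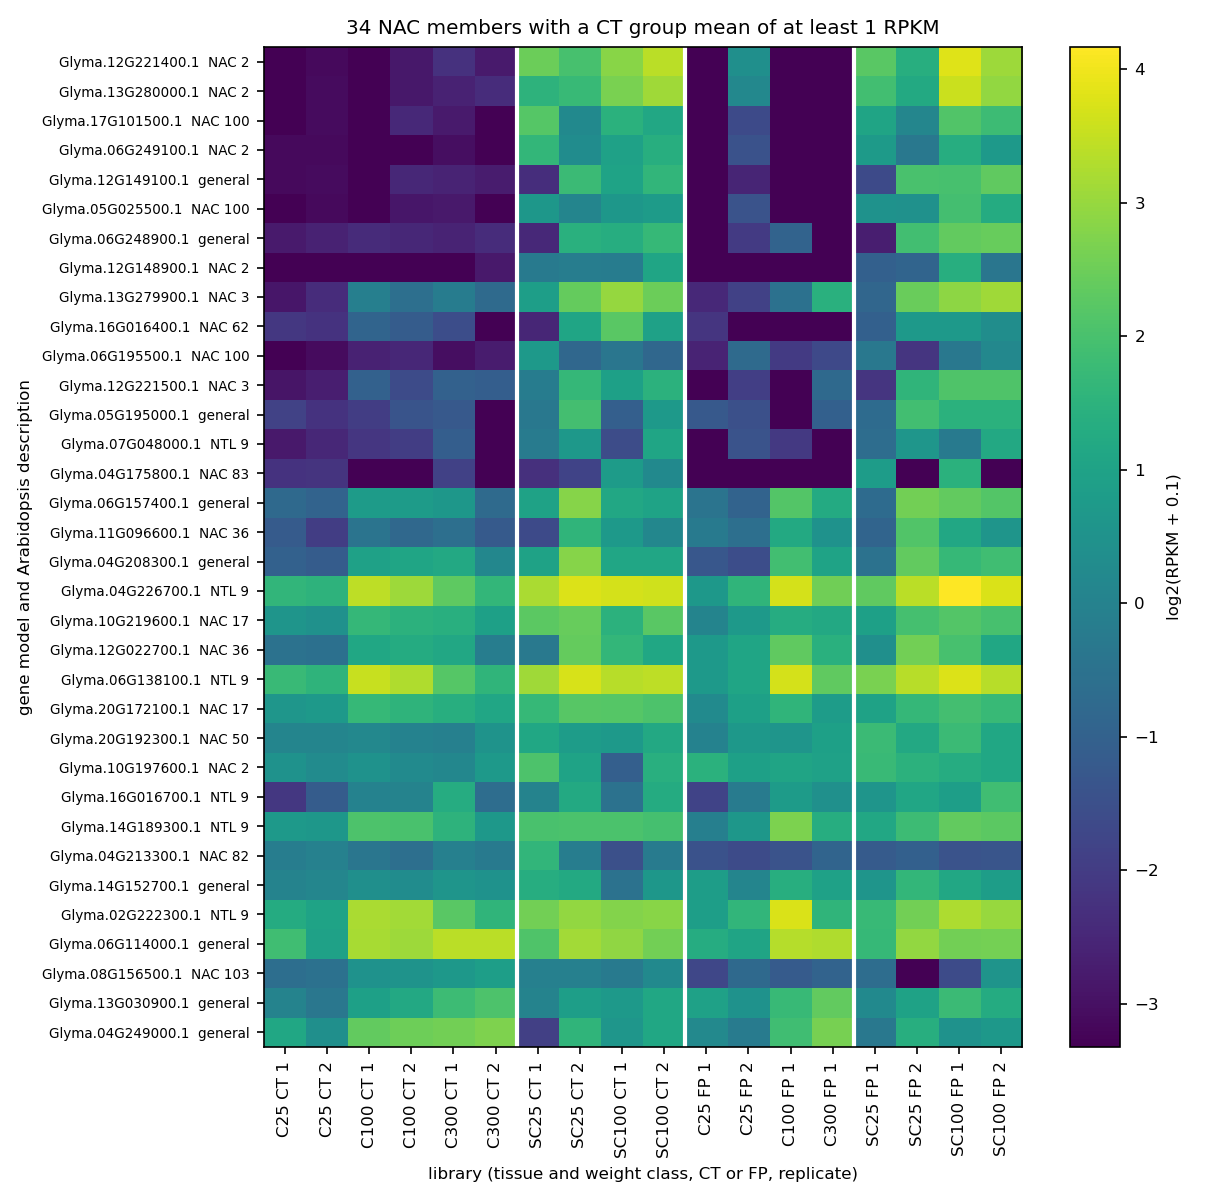
Level of each of the 34 members with a CT group mean of at least 1 RPKM (rows) in each of the 18 libraries (columns), as log2(RPKM + 0.1), with NTL standing for NAC transcription factor-like and "general" for the family description without a number. The rows are ordered by the seed coat to cotyledon ratio in CT, and the upper rows are dark in all 6 cotyledon CT libraries and lighter in the 4 seed coat CT libraries.

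Some libraries stood apart, and their values touch the results. Total counts ran from 7205928 to 32562521 per library, of which the members took 0.00261% to 0.0716%. SC25 CT replicate 1 correlated with its replicate 2 at r = 0.677 over all models on the log2 scale, against 0.964 for the C25 CT pair, and its 19 storage protein models summed to 318 RPKM against 8.91 in replicate 2. SC100 CT replicate 1 had 46802 models at 0, against 17451 to 25945 in the other CT libraries. C25 FP replicate 2 held 11.5 RPKM of the seed coat peroxidase and 5.93 RPKM of anthocyanidin reductase, both seed coat genes, against 0.00 and 0.0880 in C25 FP replicate 1. The storage protein models summed to 2067 to 15300 RPKM in cotyledon CT and 8.91 to 318 RPKM in seed coat CT.

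The first comparison asked which members differ between seed coat and cotyledon of the same seed weight. Seed coats at 25 to 50 mg had higher levels of 4 of the 5 NAC 2 models, both NAC 3 models, 6 of the 8 NAC 100 models, 9 of the 14 membrane-tethered models and 5 of the 34 generally described models. With edgeR's quasi-likelihood test and Benjamini-Hochberg adjustment over all models tested, 29 of the 180 members were higher in SC25 CT than in C25 CT and 0 were lower, with 99 members tested. With the same adjustment, 8.12% of all 68848 models tested were higher and 3.77% were lower. At an unadjusted p under 0.05, 52 members were higher and 0 lower, beside 17699 of 68848 models in either direction. DESeq2 also called 0 members lower, beside 3690 of 56834 models given an adjusted p. The median log2 fold change was 2.41 over the tested members and 0.08 over all models tested. Both SC25 CT libraries lay above both C25 CT libraries for 54 tested members and below them for 6, beside 25.5% and 30.0% of all models. A filter on summed counts admits members seen in seed coats alone, so a stricter fit was set beside it: of the 18 members with at least 10 counts in every CT library, 10 were higher, against 14.1% of all models in that fit, and 0 were lower. Leaving out C25 CT replicate 1 or 2 left 11 members higher, beside 2.99% and 2.82% of all models, and leaving out SC25 CT replicate 2 gave 29 higher and 3 lower, beside 16.7% and 8.91%. With each of the 4 libraries left out in turn, 10 of the 29 calls held every time, those of 4 NAC 2, 2 NAC 3, 2 NAC 100 and 2 generally described models. Without replicate 1 of both seed coat CT groups, 59 of 96 tested members were higher and 0 lower, beside 17.6% and 13.97% of all models in that fit. In whole tissues, fewer cells of a type and less RNA per cell cannot be told apart.

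At 100 to 200 mg fewer members passed the test. In SC100 CT against C100 CT, 13 members were higher and 0 lower with edgeR, beside 3.9% of all models higher and 4.22% lower. DESeq2 called 16 and 0, beside 3393 higher and 3798 lower of 52830 models given an adjusted p. At an unadjusted p under 0.05, 30 members were higher and 2 lower, beside 14988 of 68848 models in either direction. The median log2 fold change was 1.62 over the 99 tested members and -0.27 over all models, a difference that remained on library totals (2.38 and 0.52). Both SC100 CT libraries lay above both C100 CT libraries for 48 tested members and below them for 10, beside 20.3% and 33.9% of all models. Of the 18 members with at least 10 counts in every CT library, 0 were called with edgeR, against 3.77% of models called higher in that fit. At an unadjusted p under 0.05, 1 was higher and 0 lower, beside 4222 of 16219 models in either direction. The count of higher members was 5 without C100 CT replicate 1 and 8 without C100 CT replicate 2, beside 1.31% and 1.61% of all models. It was 20 without SC100 CT replicate 2, beside 6.19%, and 36 with 2 lower without replicate 1 of both seed coat CT groups, beside 12.1% and 10.2%. The calls of 3 NAC 2 models, 1 NAC 3 model and 1 NAC 100 model held with each of the 4 libraries left out. Of the members called higher, 10 were called at both weights, 19 at 25 to 50 mg alone and 3 at 100 to 200 mg alone. Whether the tissue difference itself changed between the weights was tested separately.

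**Figure D2:**
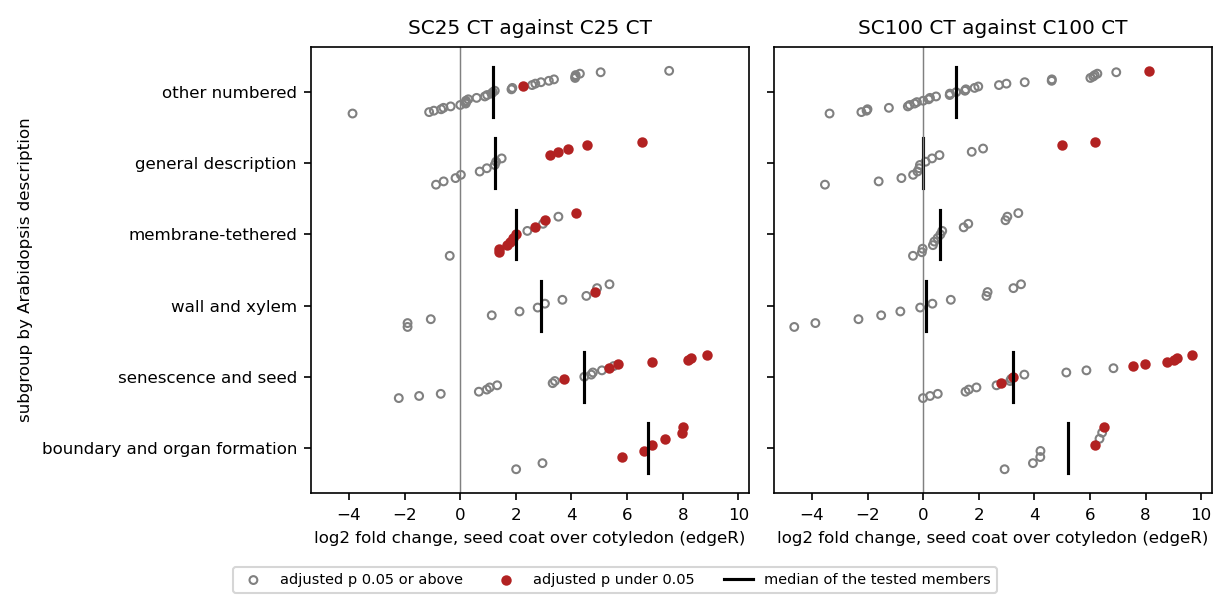
Log2 fold change of seed coat over cotyledon CT for each tested member, by subgroup, at 25 to 50 mg (left) and 100 to 200 mg (right). Filled points passed an adjusted p of 0.05 and black bars are subgroup medians, which for the boundary and organ formation group stood at 6.75 and 5.19.

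The NAC 2 models gave the widest separation between the tissues. Glyma.12G221400.1 read 5.51 and 3.90 RPKM in the SC25 CT libraries and 7.05 and 10.3 RPKM in SC100 CT. In the 6 cotyledon CT libraries it read 0.00 to 0.108 RPKM. The groups did not overlap at either weight, with log2 fold changes of 8.86 (SE 0.77, adjusted p = 1.47e-06) and 9.02 (SE 0.79, adjusted p = 4.84e-06). In counts, 581 reads in SC25 CT stood against 1 in C25 CT, a ratio of rates of 666 with an exact 95% interval of 119 to 26340 that covers counting error only.

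A second model of this description, Glyma.13G280000.1 on chromosome 13, had a like pattern. It read 2.74 and 3.20 RPKM in SC25 CT and 6.26 and 8.55 RPKM in SC100 CT, and 0.00 to 0.0916 RPKM in the cotyledon CT libraries. The log2 fold changes were 8.19 (SE 0.77, adjusted p = 2.59e-06) at 25 to 50 mg and 8.78 (SE 0.79, adjusted p = 5.92e-06) at 100 to 200 mg. Over the 18 libraries the log2 levels of both models correlated at r = 0.997, given as a description, since reads matching both models were counted at each.

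Another pair with this description was lower in level, and again was read mainly in the seed coat. Glyma.06G249100.1 read 2.99 and 1.16 RPKM in SC25 CT, 1.85 and 2.48 RPKM in SC100 CT and at most 0.0214 RPKM in cotyledon CT. Glyma.12G148900.1 read 0.756 and 0.806 RPKM in SC25 CT, 0.785 and 2.01 RPKM in SC100 CT, and 0 counts in the C25 and C100 CT libraries. Its fold is therefore a lower bound: at least 37.4-fold higher in SC25 CT and at least 34.3-fold higher in SC100 CT, against a floor of 3 counts over the group. Both models passed at both weights, with adjusted p of 7.15e-05 and 0.000118 for Glyma.06G249100.1 and 0.00136 and 0.00213 for Glyma.12G148900.1. The fifth model of this description, Glyma.10G197600.1, is spelled apart in the files and behaved otherwise, at 1.01 to 1.56 RPKM in cotyledon CT and 0.385 to 4.16 RPKM in seed coat CT. Arabidopsis uses the name NAC domain containing protein 2 for more than 1 gene, and the files do not say which is meant.

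The NAC 100 models made up most of the boundary and organ formation group, and in Arabidopsis the factor is held down by a microRNA. All 8 were tested and 6 were higher in SC25 CT than in C25 CT, with 2 of them higher also in SC100 CT than in C100 CT. Glyma.17G101500.1 read 4.44 and 1.09 RPKM in SC25 CT, 2.64 and 2.17 RPKM in SC100 CT and at most 0.0809 RPKM in cotyledon CT. The log2 fold changes were 8.02 (SE 1.13, adjusted p = 0.000134) and 6.17 (SE 1.07, adjusted p = 0.00133). Glyma.05G025500.1 read 1.46 and 0.956 RPKM in SC25 CT, 1.45 and 1.64 RPKM in SC100 CT and at most 0.0432 RPKM in cotyledon CT, with log2 fold changes of 6.91 (SE 1.13, adjusted p = 0.000543) and 6.51 (SE 1.17, adjusted p = 0.00179).

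The 4 remaining called NAC 100 models passed at 25 to 50 mg alone. Glyma.04G167200.1 had 85 counts in SC25 CT and 0 in C25 CT, at least 32.5-fold higher (adjusted p = 0.00249), and Glyma.09G235700.1 had 58 against 0, at least 22.2-fold higher (adjusted p = 0.0294). Glyma.06G195500.1 read 1.56 and 0.461 RPKM and Glyma.18G261300.1 read 0.892 and 0.615 RPKM in SC25 CT, each with 1 count over the C25 CT libraries. All 4 calls were lost without at least 1 library, with adjusted p up to 0.24 for Glyma.09G235700.1. In SC100 CT these 4 models read up to 0.663 RPKM and had lower means than in SC25 CT, but none was called between the seed coat weights.

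Members described as NAC 3, the name of a senescence regulator in Arabidopsis, lay beside the NAC 2 models on the same chromosomes by model number. Glyma.13G279900.1, next to Glyma.13G280000.1, read 1.75 and 5.16 RPKM in SC25 CT and 7.88 and 5.53 RPKM in SC100 CT. In cotyledons it was low but present, at 0.0357 and 0.0943 RPKM at C25, 0.841 and 0.570 at C100 and 0.778 and 0.508 at C300. Its log2 fold changes were 5.66 (SE 0.69, adjusted p = 2.99e-05) and 3.22 (SE 0.57, adjusted p = 0.0015). Glyma.12G221500.1, next to Glyma.12G221400.1, was higher at both weights too, with log2 fold changes of 5.36 and 2.81, of which the second lost its call without either C100 CT library (adjusted p up to 0.237). Unlike their NAC 2 neighbours, these models were read in every cotyledon CT library, at 0.0338 to 0.406 RPKM for Glyma.12G221500.1.

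Several expressed members lay beside one another in this way. With model numbers at most 300 apart, 24 members fell into 11 clusters, and 10 of the clusters mixed descriptions. In 5 clusters 2 or more members reached 1 RPKM in a CT group. A second kind of cluster paired a NAC 2 model with a generally described one: Glyma.12G149100.1 beside Glyma.12G148900.1, and Glyma.06G248900.1 beside Glyma.06G249100.1. Both generally described neighbours were higher in the seed coat at both weights, with log2 fold changes of 6.55 and 6.19 for Glyma.12G149100.1 and 4.55 and 5.004 for Glyma.06G248900.1. At 25 to 50 mg each of these calls was lost without either C25 CT library and without SC25 CT replicate 2, and the adjusted p reached 0.131 for Glyma.12G149100.1 and 0.558 for Glyma.06G248900.1. At 100 to 200 mg it reached 0.162 and 0.129 without C100 CT replicate 1.

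The membrane-tethered members had the highest summed CT level of the groups at every stage but C300, where the generally described members summed to 25.5 RPKM. Their summed CT levels were 13.1 RPKM in the C25 group, 41.0 RPKM in the C100 group and 20.5 RPKM in the C300 group, and 46.9 in SC25 CT and 49.6 in SC100 CT. At 25 to 50 mg 9 of the 14 were higher in the seed coat, by smaller folds than the NAC 2 and NAC 100 models, and at 100 to 200 mg 0 were called. Each of the 9 calls was lost without at least 1 of the 4 libraries. Glyma.04G226700.1, the member with the highest CT group mean, read 2.92 and 2.79 RPKM in C25 CT and 9.29 and 13.51 RPKM in SC25 CT, a log2 fold change of 1.99 (SE 0.38, adjusted p = 0.00201). At 100 to 200 mg it read 10.6 and 8.34 RPKM in the cotyledon and 12.7 and 12.4 RPKM in the seed coat, a log2 fold change of 0.40 (SE 0.37, adjusted p = 0.565).

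Other anchored members gave folds of a like size. Glyma.06G138100.1 read 3.30 and 2.84 RPKM in C25 CT and 8.45 and 13.04 RPKM in SC25 CT (log2 fold change 1.81, adjusted p = 0.00416). The NAC 17 models, named after a factor of the endoplasmic reticulum membrane that signals mitochondrial stress in Arabidopsis, were among them. Glyma.10G219600.1 read 1.40 and 1.29 RPKM in C25 CT and 4.80 and 5.29 RPKM in SC25 CT, a log2 fold change of 1.91 (SE 0.38, adjusted p = 0.00308), and Glyma.20G172100.1, of the same description, differed by 1.39 (SE 0.36, adjusted p = 0.0165). Glyma.16G016400.1, described as NAC 62, was spread widely within the seed coat, at 0.0742 and 2.00 RPKM in SC25 CT and 4.70 and 1.85 RPKM in SC100 CT, and was not called.

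The 3 members called at the later weight alone had low levels. Glyma.13G327600.1 and Glyma.12G171600.1, both described as NAC 25, a name tied to the endosperm and tapetum in Arabidopsis, had 50 and 35 counts in SC100 CT and 0 in C100 CT. That made them at least 17.9-fold and at least 12.5-fold higher. Glyma.08G360200.1, described as NAC 83, a repressor of xylem differentiation in Arabidopsis, read 0.670 and 1.10 RPKM in SC100 CT and 0.00 in both C100 CT libraries, at least 17.5-fold higher. All 3 calls were lost without either C100 CT library, and both NAC 25 calls also without SC100 CT replicate 1, the library with 46802 models at 0. The calls of Glyma.12G148900.1 and Glyma.05G025500.1 at this weight were lost without C100 CT replicate 1 (adjusted p = 0.0554 and 0.0732).

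Genes known in Arabidopsis to act downstream of wall NACs were counted beside the family. Of 100 models described as secondary wall genes, 35 were tested, 9 were higher in SC25 CT and 11 in SC100 CT than in the cotyledon, and 0 were lower, beside 8.12% and 3.9% of all models higher, with median log2 fold changes of 2.50 and 4.15 against 0.08 and -0.27 over all models. Between the cotyledon stages and between the seed coat weights 0 of them were called. Few models of any kind were: 0.0203% higher and 0.0363% lower between the seed coat weights, and at most 0.446% in a direction between cotyledon stages. From SC25 to SC100 CT the list's median log2 fold change was 1.67, against -0.37 over all models. From C25 to C100 CT it was -0.41 against -0.04, and from C100 to C300 CT 0.59 against 0.00. Both called cellulose synthase A4 models, subunits of the secondary wall cellulose machinery, were near 0 in cotyledons: Glyma.09G051100.1 averaged 3.00 RPKM in SC25 CT and 10.8 RPKM in SC100 CT, against at most 0.0392 RPKM in the cotyledon groups. Of the 12 wall and xylem NAC members tested, 1 was higher at 25 to 50 mg, a share near that of all models, and 0 at 100 to 200 mg. This was Glyma.07G201800.1, described as NAC 73, a regulator of the secondary wall in Arabidopsis, at 1.28 and 0.285 RPKM in SC25 CT and 0.00 and 0.0505 RPKM in C25 CT, with an adjusted p of up to 0.276 when 1 library was left out.

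A list of 52 senescence and chlorophyll breakdown models, genes downstream of senescence NACs in Arabidopsis, was counted in the same way. Of 21 tested, 8 were higher in the seed coat at each weight and 0 were lower, beside 8.12% and 3.9% of all models higher. The list's median log2 fold changes were 0.12 and 1.44 against 0.08 and -0.27 over all models, so that at 25 to 50 mg its median stood close to that of all models. Between stages 0 were called in either tissue, where few models of any kind were called. The list's median was 0.74 from SC25 to SC100 CT, against -0.37 over all models. It was 0.42 against -0.04 from C25 to C100 CT and 0.65 against 0.00 from C100 to C300 CT. At both weights the calls were 6 models of senescence-associated gene 12, a cysteine protease whose copies here share their description, and 2 models of non-yellowing 1, which starts chlorophyll loss. Reads matching more than 1 of the protease copies were counted at each, so their 6 calls may not be separate. Glyma.06G273700.1, one of the protease models, averaged 6.58 RPKM in SC25 CT and 7.92 RPKM in SC100 CT, against at most 0.0971 RPKM in cotyledons.

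The next comparison followed the cotyledon as it filled. Between C25 and C100, 20 members rose and 1 fell at an unadjusted p under 0.05, beside 4213 of 68848 models in either direction. With adjustment, 3 members rose and 0 fell with edgeR, beside 0.446% of all models that rose and 0.0726% that fell. These were Glyma.02G222300.1 and Glyma.06G138100.1, both NAC transcription factor-like 9 models, and the NAC 3 model Glyma.13G279900.1. Glyma.02G222300.1 read 2.32 and 1.95 RPKM in C25 CT and 9.22 and 8.57 RPKM in C100 CT, a log2 fold change of 2.06 (SE 0.37, adjusted p = 0.0173). Glyma.06G138100.1 went from 3.30 and 2.84 to 11.4 and 9.66 RPKM, a log2 fold change of 1.78 (SE 0.38, adjusted p = 0.0437), and Glyma.13G279900.1 changed by 3.41 (SE 0.70, adjusted p = 0.0343).

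The rise rests on the scaling between stages. The 19 storage protein models went from 2067 and 2162 RPKM in C25 CT to 14140 and 14420 RPKM in C100 CT, and without TMM factors the median of all models moved from -0.04 to -1.11 on the log2 scale. The median of the 99 tested members moved with it, from 0.75 to -0.01, and so stayed above that of all models. On library totals 0 members were called, with Glyma.02G222300.1 at 0.99, Glyma.06G138100.1 at 0.71 and Glyma.13G279900.1 at 2.35. Leaving out any 1 of the 4 libraries also ended all 3 calls, and most of the calls over all models ended with them. DESeq2 called 7 members higher and 0 lower, beside 649 higher and 159 lower of 30139 models given an adjusted p.

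Among other abundant members, Glyma.04G226700.1 stood at a log2 difference of 1.73 (adjusted p = 0.0541), Glyma.06G114000.1 at 1.67 (adjusted p = 0.122) and Glyma.04G208300.1 at 2.35 (adjusted p = 0.118), and none of them passed the test. All 13 tested membrane-tethered members and all 12 tested wall and xylem members had positive values, with medians of 1.54 and 3.00 against -0.04 over all models, though the 33 wall and xylem members summed to only 0.276 RPKM in C25 CT and 1.25 RPKM in C100 CT.

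From C100 to C300 0 members passed the test in either direction with edgeR or DESeq2, beside 0.0189% of all models higher and 0.0029% lower with edgeR. At an unadjusted p under 0.05, 2 members were higher and 4 lower, beside 2314 of 68848 models in either direction. The 4 lower values were all NAC transcription factor-like 9 models. Glyma.06G138100.1 read 11.4 and 9.66 RPKM in C100 CT and 4.47 and 2.89 RPKM in C300 CT, a log2 difference of -1.51 (SE 0.38, adjusted p = 0.404). Glyma.04G226700.1 and Glyma.02G222300.1 stood at -1.25 and -1.23, and in all of them the C300 libraries lay below the C100 libraries.

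A few generally described members were highest in the late cotyledon. Glyma.06G114000.1 read 3.55 and 1.86 RPKM at C25, 8.93 and 8.26 at C100 and 10.4 and 10.5 at C300 in CT. Glyma.04G249000.1 read 2.12 and 1.22, then 5.02 and 5.58, then 5.79 and 6.46 RPKM, and Glyma.13G030900.1 went from 0.927 and 0.689 to 3.38 and 4.12 RPKM. The C300 libraries of all 3 lay above their C25 libraries without overlap, and those of Glyma.04G249000.1 lay above every seed coat CT library. No test was made of C300 against C25.

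**Figure D3:**
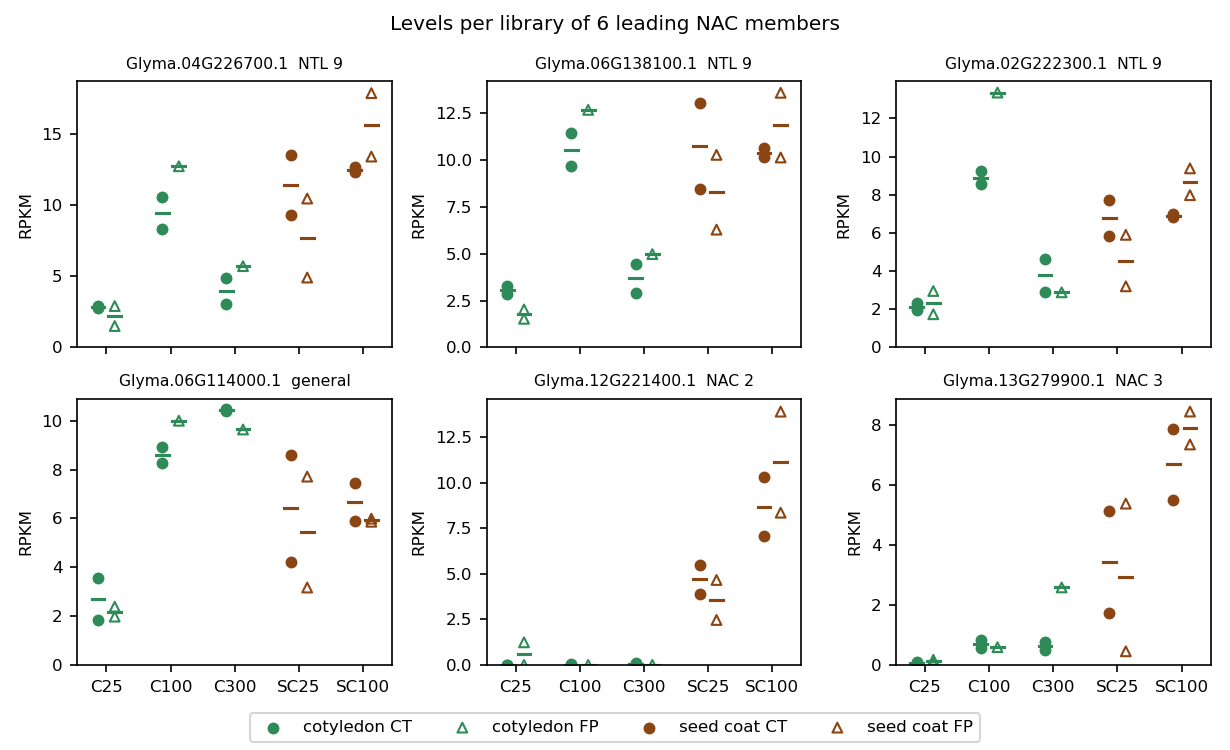
RPKM per library of 6 leading members in cotyledons (C25, C100, C300) and seed coats (SC25, SC100), with filled circles for CT, open triangles for FP and bars for group means. The upper row, of NAC transcription factor-like 9 models (NTL 9), peaks at C100 within the cotyledon, and Glyma.12G221400.1 is at or near 0 in every cotyledon library but 1 FP library at 1.24 RPKM.

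Between the seed coat weights 0 members passed in CT in either direction with edgeR or DESeq2, beside 0.0203% of all models higher and 0.0363% lower with edgeR. At an unadjusted p under 0.05, 6 members were higher and 2 lower, beside 9752 of 68848 models in either direction. Leaving out SC25 CT replicate 2 gave 9 higher and 1 lower of 92 tested, beside 4.2% and 12.4% of all models in that fit. Leaving out SC100 CT replicate 2 gave 3 higher and 4 lower of 96, beside 1.44% and 12.1%, and leaving out both replicates 1 gave 2 and 2, beside 0.663% and 0.635%. Whether the step from 25 to 100 mg differed between cotyledon and seed coat was tested as an interaction, a comparison added after the data had been seen, in which a positive value is a larger step in the cotyledon. With edgeR 0 members passed, beside 0.125% of all models with a positive and 0.0247% with a negative call. At an unadjusted p under 0.05, 15 members were positive and 3 negative, beside 5896 of 68848 models in either direction. DESeq2 called 1, the generally described Glyma.04G208300.1, and leaving out both seed coat replicates 1 gave 15 positive calls and 1 negative, beside 3.14% and 0.931% of all models in that fit.

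The 2 replicates of SC25 differed from each other in which members they held, and they did so alike in CT and FP. Per the methods, the CT and FP libraries of a replicate came from the same ground tissue. Of 45 members with at least 10 counts over the CT pair and over the FP pair, 37 (82.2%) had the same sign of the replicate gap in CT and in FP, against 62.7% of 17099 primary models under the same filter. For 15 members both gaps were over 2-fold toward replicate 2, for 2 over 2-fold toward replicate 1, and for 1 over 2-fold in opposite directions. Over the primary models the same counts were 975, 1320 and 636, and the median CT gap was -0.35, against 0.62 for the members. Across the 45 members the gaps correlated at r = 0.740 and across the primary models at r = 0.379, given as a description since the models share libraries. The same gaps had the same sign for 10 of 20 members at C25, beside 54.1% of primary models, and for 30 of 51 (58.8%) at SC100, beside 51.0%.

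Of the 15 members high in SC25 replicate 2 in both library types, 8 were generally described, 2 each were NAC 3, NAC 36 and NAC 62 models, and 1 was a NAC 11 model. The generally described Glyma.12G149100.1 read 0.0972 RPKM in CT replicate 1 and 3.37 in replicate 2, and 0.219 and 3.92 RPKM in the matching FP libraries. Glyma.06G248900.1 read 0.0826 and 2.61 RPKM in CT and 0.0542 and 3.64 RPKM in FP. Glyma.11G096600.1, described as NAC 36, a factor that affects leaf and stem growth in Arabidopsis, read 0.221 and 2.86 RPKM in CT and 0.435 and 4.27 RPKM in FP. In SC100 CT both libraries held Glyma.12G149100.1, at 1.92 and 2.97 RPKM. Of the leading members, Glyma.04G208300.1 read 1.88 and 6.88 RPKM in SC25 CT and 0.607 and 5.03 RPKM in FP.

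NAC 100 and NAC 2 models leaned the other way or not at all. Glyma.06G195500.1 read 1.56 and 0.461 RPKM in SC25 CT and 0.707 and 0.122 RPKM in FP. Glyma.06G249100.1 read 2.99 and 1.16 RPKM in CT and 1.61 and 0.698 RPKM in FP, so that it and its chromosomal neighbour Glyma.06G248900.1 were high in different replicates. Storage protein models, the mark of cotyledon RNA, summed to 318 RPKM in CT replicate 1 and 8.91 in CT replicate 2, and to 29.9 and 18.4 RPKM in FP, and their part in these gaps was not tested.

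**Figure D4:**
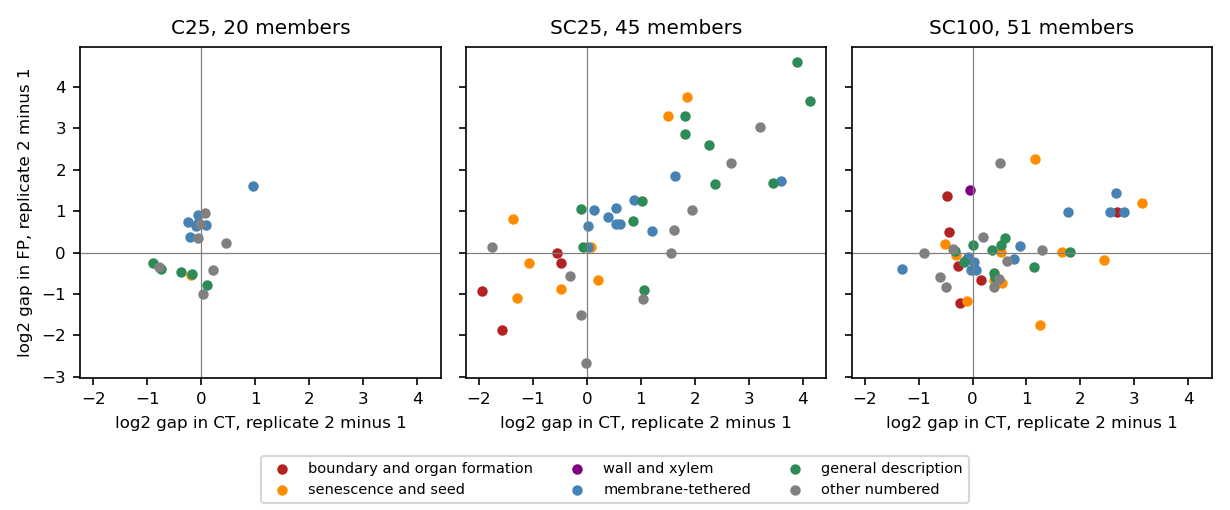
Log2 gap between replicate 2 and replicate 1 in CT (x axis) and FP (y axis) for members with at least 10 counts over the CT pair and over the FP pair, at C25, SC25 and SC100, on log2(RPKM + 0.1). The SC25 points spread along the diagonal, with 37 of 45 of the same sign, while the C25 points lie close to 0 on the x axis.

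Footprints were then set against control RNA, since their ratio, the translational efficiency (TE), measures how heavily an mRNA is loaded with ribosomes. At C25, 3 members were higher in FP than in CT and 2 were lower, with 43 tested, beside 4.19% and 4.89% of all models. The NAC 36 model Glyma.12G022700.1 read 0.611 and 0.578 RPKM in CT and 1.55 and 2.01 RPKM in FP, a log2 difference of 1.57 (SE 0.33, adjusted p = 0.0223), which turned to -0.72 on library totals. On totals the median of all models stood at -2.50 in place of -0.24. There 2 members were called higher and 32 lower, beside 0.71% and 87.9% of all models. With either C25 CT library left out, no model of any kind was called, these members included. Among the members DESeq2 called Glyma.12G022700.1 alone, beside 2091 models higher and 930 lower of 20605 given an adjusted p.

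Of the 3 NAC 82 models, named after a factor of the nucleolar stress response in Arabidopsis, 2 were called lower in footprints than in RNA. Glyma.04G213300.1 read 0.795 and 0.889 RPKM in C25 CT and 0.273 and 0.227 RPKM in C25 FP, a log2 difference of -1.74 (SE 0.40, adjusted p = 0.0281). Glyma.06G152900.1 read 0.819 and 1.17 RPKM in CT and 0.286 and 0.356 RPKM in FP, a difference of -1.62 (SE 0.41, adjusted p = 0.0363). The TE of Glyma.04G213300.1 lay between 0.194 and 0.565 over the 5 stages and that of Glyma.06G152900.1 between 0.217 and 0.635. In SC25 and SC100 neither passed the test. The remaining NAC 82 model, Glyma.05G191300.1, had 9 and 17 counts in C25 CT and 0 in both C25 FP libraries, and was not called (adjusted p = 0.1). Glyma.08G156500.1, described by the name of an Arabidopsis factor of the unfolded protein response, also had a TE under 1 at every stage, from 0.263 to 0.884, and was not called at C25, SC25 or SC100.

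The other two calls at C25 rest on 1 library. Glyma.12G221400.1 had 0.00 RPKM in C25 FP replicate 1 and 1.24 RPKM in replicate 2, and Glyma.13G280000.1 had 0.00 and 1.04 RPKM, against at most 0.0153 RPKM in C25 CT. In each, FP replicate 1 did not exceed CT, so the groups overlapped. Replicate 2 is the library with 11.5 RPKM of seed coat peroxidase and 5.93 RPKM of anthocyanidin reductase, and the part of seed coat RNA in both calls was not tested. Without it neither model had enough counts for a test, and 8 other members were called, 4 higher and 4 lower of 38 tested, beside 8.61% and 8.99% of all models in that fit. Glyma.04G213300.1 and Glyma.06G152900.1 were among the 4 lower.

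In the seed coats 0 members passed between FP and CT in the edgeR fit or with DESeq2. At SC25 73 were tested, and with adjustment 0.0% of all models were higher and 0.0255% lower. At an unadjusted p under 0.05, 0 members were higher and 3 lower, beside 2770 of 54964 models in either direction. At SC100 84 were tested, and with adjustment 0.0% of all models were called. Unadjusted, 4 members were higher and 0 lower, beside 2001 of 49157 models in either direction. Leaving out CT replicate 2 gave 4 higher and 5 lower of 58 members tested at SC25, beside 2.32% and 10.2% of all models in that fit. At SC100 it gave 14 higher and 4 lower of 74, beside 15.4% and 4.89%, where the SC100 CT library left in the fit is the one with 46802 models at 0.

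The median TE of the members stood above that of all primary models at C100, C300 and SC100. At C25 it stood below under both filters used, and its place at SC25 moved with the filter. Over members with at least 10 counts in every CT library of the stage, it was 0.859 at C25 (28 members), 1.47 at C100 (24), 1.18 at C300 (20), 0.707 at SC25 (41) and 1.25 at SC100 (46). Over primary models under the same filter it was 0.927, 0.892, 0.855, 0.771 and 1.01. With a filter of 1 RPKM in CT in its place, the members stood at 0.807 against 1.18 at C25 and at 0.849 against 0.733 at SC25, and stayed above at the other 3 stages. On library totals the members' medians were 0.176, 0.447, 0.648, 0.314 and 0.460 by stage, all under 1, against 0.189, 0.273, 0.490, 0.385 and 0.367 for primary models, so the level of TE rests on the TMM scaling. Taking each FP library with its own CT library under the first filter, the members' median was 0.759 and 0.971 at C25. It was 0.549 and 0.793 at SC25 and 1.38 and 1.12 at SC100. Over primary models it was 0.929 and 0.895 at C25, 0.694 and 0.889 at SC25 and 1.12 and 0.930 at SC100. At C25 the members thus stood below in replicate 1 and above in replicate 2. C100 and C300 had 1 FP library each, so no test was made there. At C100, Glyma.11G096600.1 had the highest TE of the members at 4.06, and the NAC transcription factor-like 9 model Glyma.02G222300.1, at 13.3 RPKM in FP and a mean of 8.89 RPKM in CT, had a TE of 1.501.

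**Figure D5:**
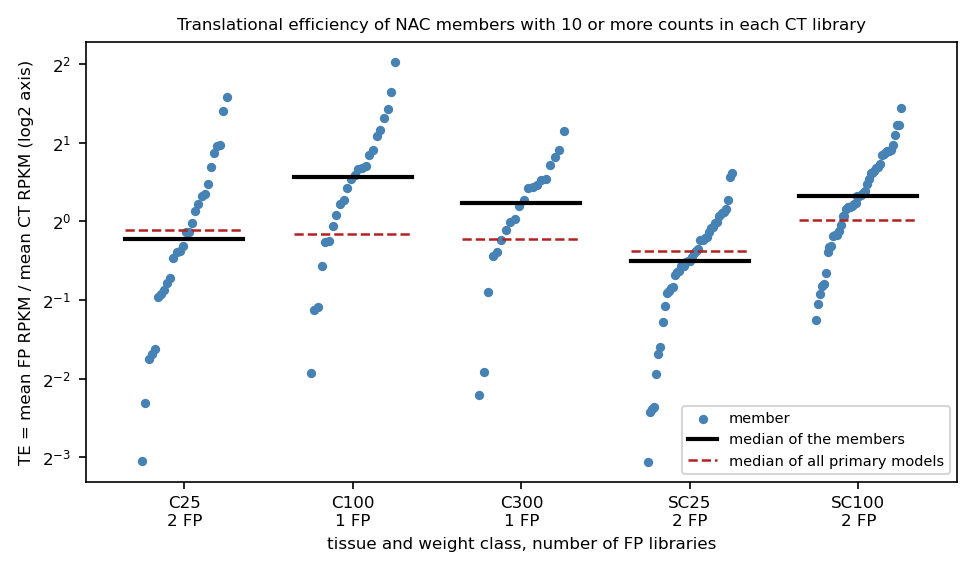
Translational efficiency (mean FP RPKM over mean CT RPKM, log2 axis) of each member with at least 10 counts in every CT library of the stage, with the members' median as a black bar and that of all primary models as a dashed line. The members' median lies above the dashed line at C100 (1.47 against 0.892), C300 and SC100, and just below it at C25 and SC25 under this filter.

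The tissue difference was also read in the footprints. In SC25 FP against C25 FP, 5 of 70 tested members were higher and 0 lower with edgeR, beside 1.52% of all models higher and 2.72% lower. DESeq2 also called 5 and 0, beside 517 higher and 1017 lower of 19345 models given an adjusted p. At an unadjusted p under 0.05, 35 members were higher and 0 lower, beside 11872 of 50963 models in either direction. Glyma.17G101500.1 read 0.00 and 0.218 RPKM in C25 FP and 1.99 and 0.992 RPKM in SC25 FP, a log2 fold change of 3.74 (SE 0.83, adjusted p = 0.0283). Glyma.12G149100.1, Glyma.13G279900.1, Glyma.05G025500.1 and Glyma.06G138100.1 passed as well, at 5.41, 4.31, 3.18 and 2.21. Of the 29 members called in CT at this weight, all 29 were tested in FP and 28 had a positive value. Both SC25 FP libraries lay above both C25 FP libraries for 41 of the 70 tested members and below them for 0, beside 29.3% and 25.6% of all models. Leaving out replicate 1 of C25 FP left 0 calls, beside 0.0146% of all models higher, and leaving out its replicate 2, the library with the seed coat genes, gave 11, beside 5.15%, when Glyma.12G221400.1 and Glyma.13G280000.1 were among those called. Leaving out SC25 FP replicate 1 gave 9, beside 1.87%, and leaving out its replicate 2 gave 1, beside 0.126%.

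In SC100 FP against SC25 FP 0 members passed with edgeR, beside 0.0% of all models, and 0 with DESeq2. At an unadjusted p under 0.05, 8 were higher and 0 lower, beside 3557 of 50963 models in either direction. The test of whether TE differed between SC25 and C25 gave 0 members with edgeR, beside 0.0% of all models, and 0 with DESeq2. Unadjusted, 0 members were higher and 9 lower, beside 3010 of 65006 models in either direction. Those 9 included Glyma.12G221400.1, at a log2 difference of -6.24 (SE 1.51, adjusted p = 0.433), whose C25 value comes from the same single FP library. With a replicate block, which pairs the CT and FP libraries of a number, 3 members were lower, namely Glyma.12G221400.1, Glyma.13G280000.1 and Glyma.06G195500.1. Without C25 FP replicate 2 0 members were called.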

How the data were processed

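Per the labels and methods, the authors trimmed adapters, aligned reads with Bowtie version 1 to the Wm82.a2 cDNA models with 0 mismatches and up to 25 alignments, and deposited 1 table of counts per library with the cDNA length in bases and Pfam and Arabidopsis descriptions (88515 models). A read matching several models was counted at each, so levels of near-identical copies and splice models are uncertain. Of 20 samples, 2 (replicate 2 of C100 FP and C300 FP) were not analysed here. The members and lists were chosen with earlier results of these data known. Counts were fitted with edgeR 4.0.16 (R 4.3.3; quasi-likelihood test, two-sided, models with at least 10 counts over the libraries of a fit, Benjamini-Hochberg adjustment, threshold 0.05), with TMM factors from all 18 libraries, which also scaled every RPKM. Fits were group-wise without a block: 10 CT libraries, 4 libraries for each FP against CT test, 6 FP libraries, and 8 libraries for TE. Replicate numbers are shared between groups: same-numbered CT and FP libraries come from 1 powder by the methods, and their deviations correlated at 0.050 (C25), 0.223 (SC25) and 0.104 (SC100). The labels call replicates biological. Alternatives used TMM within the fit, library totals, DESeq2 1.42.0, other count filters, primary models alone, a replicate block and each library left out. Named members are the 10 highest in CT and, per comparison, those with the largest called change whose libraries did not overlap (up to 8 per direction between tissues, 5 between stages, 4 for FP tests); others were named after their values were seen. A fold against 0 counts used a floor of 3 counts over the group. The fits were also run on simulated counts, with large changes placed in 200 models of ample counts and the same spread for every model. That setting is unlike the sparse members and the uneven seed coat replicates, so it does not measure how the fits behave on them. No sequence is shown because the reference table could not be matched to the model names.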

Additional observations from a re-analysis of the deposited data

How the results depend on the processing

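In the tissue comparisons, the 29 members higher in SC25 CT than in C25 CT became 10 with at least 10 counts in every library, 59 without replicate 1 of both seed coat CT groups (chosen after seeing the data), and 11 to 32 with each library left out, when 0 to 3 were lower. For SC100 CT against C100 CT the 13 higher members became 0, 36 and 5 to 20 in the same order, and the count of lower members was 1 with no count filter and 2 without both replicates 1. For C100 CT against C25 CT the 3 higher members became 1 with TMM within the fit, 0 on library totals, 7 with DESeq2, 7 with no filter and 0 with any library left out. For SC100 CT against SC25 CT the counts were 2 higher and 2 lower without both replicates 1, and 0 to 9 higher and 0 to 4 lower with each library left out. For the step between weights they were 1 with DESeq2, 2 with no filter, 16 without both replicates 1, and 0 to 6 by library. Of these, only the count without both replicates 1 was set beside the share of all models above. The others therefore do not set the members apart from models at large.

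In the footprint tests, the 5 members called at C25 became 34 on totals, 1 with DESeq2, 3 with primary models alone and 0 to 8 by library, and Glyma.12G022700.1 turned from 1.57 to -0.72 on totals. At SC25 and SC100 the 0 calls became 0 to 9 and 0 to 18 by library, and 2 on totals at SC100. For SC25 FP against C25 FP the 5 became 2 with TMM within the fit, 28 on totals, 23 with no filter, 3 with at least 10 counts in every library, 2 with primary models alone and 0 to 11 by library. For TE the 0 became 3 with no filter and 0 to 3 by library. Over all models, totals called 0.71% higher and 87.9% lower at C25, and 4.8% lower at SC100. For SC25 FP against C25 FP, 11.6% of all models were higher on totals, 5.19% with no filter (23 of 123 members) and 1.05% with TMM within the fit. The share was 7.75% with at least 10 counts in every library (3 of 13 members) and 1.11% with primary models alone. With no filter 0.77% of all models had a lower TE, beside 3 of 155 members. The members' median TE of 0.859 at C25, 1.47 at C100, 1.18 at C300, 0.707 at SC25 and 1.25 at SC100 became 0.176, 0.447, 0.648, 0.314 and 0.460 on library totals.

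The replicate block gave 14 members in SC25 FP against C25 FP, where the numbers pair no libraries by the methods, and 3 for TE. All models stood at 4.27% higher and 0.94% lower in those fits. For C100 CT against C25 CT, where deviations of same-numbered libraries correlated at -0.027, it left 2 of the 3 calls, beside 0.462% of all models higher. In that comparison 0.402% of all models were higher with TMM within the fit, 0.116% on totals and 1.04% with no filter (7 of 158 members). With the block, the other counts stayed within 1.5 times. C300 CT against C100 CT and SC100 FP against SC25 FP stayed at 0 under every alternative run. Counts of a few reads limit most cotyledon values: 3 reads over a model of 1 kb correspond to 0.0737 to 0.252 RPKM in the CT libraries and 0.290 to 0.651 RPKM in FP, for counting error only. With 2 libraries per group, 1 library decides many calls. The p-values rest on the spread between replicates over all groups of a fit, shared in part across models. In the CT fit that takes in groups beyond the 2 compared.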
